A study of Mus musculus with 15 samples.

Results

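The oxidative phosphorylation genes described here are the mouse genes whose annotated symbol begins with Nduf, Uqcr, Atp5, Cox4, Cox5, Cox6, Cox7 or Cox8, together with Sdha, Sdhb, Sdhc and Sdhd. Of 90 such genes with a probe set of their own, 85 had a mean signal of 50 or more over the 15 arrays and were kept, among 11716 genes tested on the array. They were measured in primary chondrocytes, the cells of cartilage, which were isolated from long bones of CD1 mouse embryos at day 15.5 of development and grown in monolayer. Each of the 5 groups had 3 arrays and 24 h of treatment. DMSO was the vehicle control. LY294002, an inhibitor of PI3K, was given at 10 µM, and so were UO126, an inhibitor of MEK, and SB202190. The series lists SB202190 with the MEK/ERK inhibitors, while textbooks give p38 as its target. TSA (trichostatin A) inhibits histone deacetylases. The cultures were of a single outbred strain and of freshly isolated cells rather than a line, and the comparisons asked how each inhibitor altered transcript levels against DMSO.

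Oxidative phosphorylation is carried out by 5 protein complexes of the inner mitochondrial membrane. Complex I takes electrons from NADH and complex II takes them from succinate. Complex III passes them to cytochrome c, complex IV passes them on to oxygen, and complex V uses the resulting proton gradient to make ATP. Nearly all subunits are encoded in the nucleus and the remainder in mitochondrial DNA. Cartilage has no blood vessels, and its chondrocytes are known for relying heavily on glycolysis.

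The 85 genes comprised 34 subunits listed under complex I, 8 complex I assembly factors, 4 subunits of complex II, 8 of complex III, 13 of complex IV, 17 of complex V, and Ndufa4l2, a relative of Ndufa4 that is not a standard subunit. Signal here is the linear MAS5 value of a probe set, and it can be compared between arrays but not between genes. In DMSO the group mean ranged from 60.3 for Ndufa4l2 to 4634 for Uqcrb. The median signal of the 85 genes was 1331 to 1637 on the individual arrays. The genes nearest to the minimum of 50 were Cox6a2, with a mean of 63.3 over all arrays, Ndufaf6, with 85.8, and, just below it, Cox7a1, with 46.7. Cox7a1, Cox7b2, Cox7c, Cox8b and Ndufb4 were left out by this minimum. Further probe sets of Ndufb4 carry other symbols as well and were not used, so the level of Ndufb4 is not settled by this. The median coefficient of variation between the 3 arrays of a group was 5.94% to 8.78% for the 85 genes and 8.81% to 11.6% for all genes tested. DMSO replicate 1 gave the lowest mean log2 signal of the DMSO arrays in each complex. The gap was largest for the 13 complex IV genes, at 0.23 below the DMSO mean. The other DMSO arrays lay 0.06 and 0.17 above it there. Over the 85 genes DMSO replicate 1 was 0.07 below the DMSO mean, and over all genes tested 0.006 below.

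TSA altered many of these transcripts, in both directions, and the other 3 inhibitors altered few. A gene was called when its adjusted p, from the moderated test of limma, was under 0.05. With TSA, 36 of the 85 genes rose and 16 fell, which is 42.4% and 18.8% of them. Together 61.2% of the 85 genes were called with TSA, near the share of all genes. Among all genes tested 58.9% were called with TSA, 30.4% higher and 28.4% lower. With LY294002, 2 genes rose and 3 fell, against 9.5% of all genes called in either direction. With SB202190, 1 rose and 1 fell, against 3.53% of all genes. With UO126 none of the 85 passed, against 3.46% of all genes. At an unadjusted p under 0.05, 5 of the 85 genes differed with UO126, 4 of them higher, and the smallest adjusted p was 0.229. The log2 change stayed within 0.2 of zero in 82 of the 85 genes with UO126, in 72 with SB202190, in 64 with LY294002 and in 22 with TSA. The corresponding shares of all genes tested were 66.1%, 62.3%, 52.9% and 23.6%. As whole cultures were measured, fewer cells of a type and less RNA per cell cannot be told apart.

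**Figure D1:**
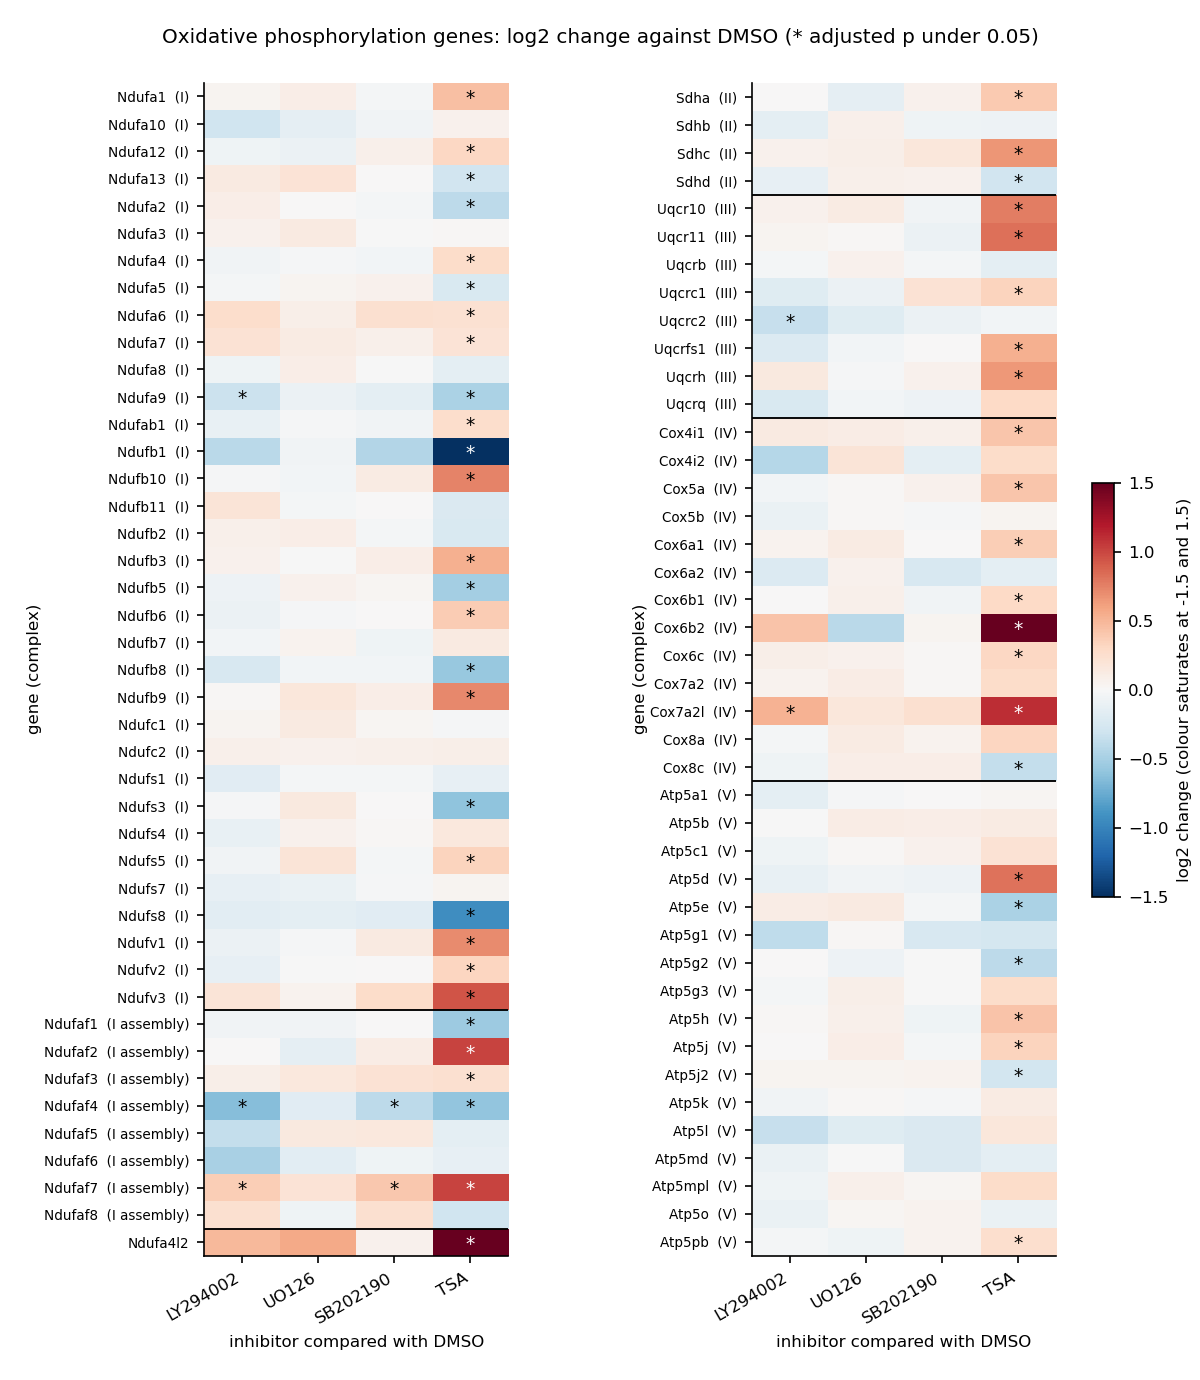
Log2 change of each of the 85 genes (rows, with the complex in brackets) against DMSO for the 4 inhibitors (columns), 3 arrays per group. An asterisk marks an adjusted p under 0.05: 52 genes with TSA, 5 with LY294002, 2 with SB202190 and 0 with UO126.

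The start sites of these genes are known for binding sites of NRF-1, of the ETS factor GABP, of YY1 and of the ERR receptors, which are regulators of genes for mitochondrial proteins. A promoter window of 300 bases, from 250 before to 50 after the annotated start, was held by the RefSeq table (GRCm38.p6) for 69 of the 85 genes. Each window was searched on both strands for 4 motifs, and matches of different motifs can share letters, as the end of the ETS type and the start of the YY1 type do. The NRF-1 type motif (GCGCA, any base, then GCGC) was present in 23.2% of the 69 genes, in 11.4% of the tested genes with a window and in 5.19% of all genes of the table. For the ETS type, CCGGAAG, the shares were 27.5%, 19.7% and 9.93%. For the YY1 type, AAGATGGCG, they were 10.1%, 3.53% and 1.64%. For the ERR type, AAGGTCA, they were 10.1%, 3.7% and 5.38%. At least 1 of the 4 was found in 53.6% of the 69 genes and in 33.4% of the tested genes. The NRF-1 type was present in 6 of the 31 genes with a window that rose with TSA, in 4 of the 14 that fell and in 6 of the 24 that did not pass, and the ETS type in 7, 5 and 7 of them.

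**Figure D2:**
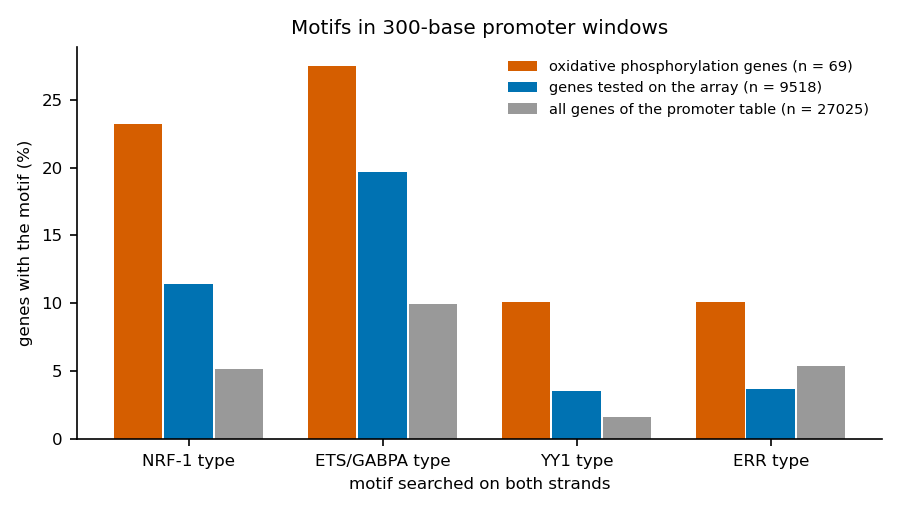
Percentage of genes (y axis) with each motif on either strand of the 300-base promoter window, for 69 oxidative phosphorylation genes, 9518 genes tested on the array and all 27025 genes of the promoter table. The bar of the oxidative phosphorylation genes is the highest of the 3 for each motif, at 10.1% to 27.5%.

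Windows of 6 genes that passed the test are shown, chosen after their values were seen to include each motif and each direction, with the motif matches in capitals. A match is a run of letters and not evidence of binding.
Uqcr11 (chr10:80406772-80407071, minus strand, ETS type, rose with TSA): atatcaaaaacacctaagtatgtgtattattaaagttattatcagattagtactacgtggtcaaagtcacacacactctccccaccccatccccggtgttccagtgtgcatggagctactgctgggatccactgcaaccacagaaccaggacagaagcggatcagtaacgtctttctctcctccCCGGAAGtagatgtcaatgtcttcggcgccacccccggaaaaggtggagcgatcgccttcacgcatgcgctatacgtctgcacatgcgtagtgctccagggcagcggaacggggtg
Cox6a1 (chr5:115348909-115349208, minus strand, NRF-1 and ETS types, rose with TSA): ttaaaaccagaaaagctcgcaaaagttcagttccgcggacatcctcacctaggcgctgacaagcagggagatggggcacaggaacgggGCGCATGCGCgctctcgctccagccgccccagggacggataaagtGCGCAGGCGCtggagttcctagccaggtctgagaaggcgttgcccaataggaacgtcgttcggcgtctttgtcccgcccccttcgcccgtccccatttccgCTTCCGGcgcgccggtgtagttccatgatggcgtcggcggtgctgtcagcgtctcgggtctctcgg
Ndufs8 (chr19:3912725-3913024, minus strand, ETS type, fell with TSA): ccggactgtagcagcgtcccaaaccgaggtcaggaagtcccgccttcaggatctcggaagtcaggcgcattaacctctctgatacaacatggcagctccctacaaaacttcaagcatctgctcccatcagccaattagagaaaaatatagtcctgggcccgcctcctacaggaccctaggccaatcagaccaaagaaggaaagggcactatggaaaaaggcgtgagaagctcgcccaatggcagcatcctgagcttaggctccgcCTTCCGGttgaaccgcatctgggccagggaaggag
Sdhd (chr9:50603800-50604099, minus strand, NRF-1, ETS and ERR types, fell with TSA): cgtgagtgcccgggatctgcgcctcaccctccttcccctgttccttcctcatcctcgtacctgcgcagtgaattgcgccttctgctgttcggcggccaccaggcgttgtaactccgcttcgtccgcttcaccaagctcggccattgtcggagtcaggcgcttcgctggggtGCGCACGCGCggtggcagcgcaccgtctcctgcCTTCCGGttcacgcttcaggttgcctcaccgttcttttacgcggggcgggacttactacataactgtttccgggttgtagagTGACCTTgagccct
Ndufaf4 (chr4:24897833-24898132, plus strand, NRF-1 type, fell with LY294002, SB202190 and TSA): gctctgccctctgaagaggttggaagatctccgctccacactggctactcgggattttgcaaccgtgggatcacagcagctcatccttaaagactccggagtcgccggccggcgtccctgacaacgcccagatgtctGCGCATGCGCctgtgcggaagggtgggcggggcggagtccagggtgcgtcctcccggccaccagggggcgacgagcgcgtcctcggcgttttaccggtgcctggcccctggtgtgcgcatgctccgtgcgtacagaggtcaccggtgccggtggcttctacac
Ndufa9 (chr6:126849095-126849394, minus strand, YY1 type, fell with LY294002 and TSA): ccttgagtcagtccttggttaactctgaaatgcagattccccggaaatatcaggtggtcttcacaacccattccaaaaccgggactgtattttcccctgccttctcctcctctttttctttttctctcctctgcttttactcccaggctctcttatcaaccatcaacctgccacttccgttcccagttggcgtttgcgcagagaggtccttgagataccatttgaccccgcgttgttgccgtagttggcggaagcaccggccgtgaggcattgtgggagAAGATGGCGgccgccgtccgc
The ETS type match is thus held by Uqcr11 and Cox6a1, which rose with TSA, as well as by Ndufs8 and Sdhd, which fell. In Cox6a1 the NRF-1 type occurred at positions -162 and -117 from the start site, and in Ndufaf4 at -113.

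With TSA each of the 5 complexes had more rises than falls and a median above zero. Falls were called for 9 genes in complex I, 3 in complex V and 1 each in complexes II and IV. The median log2 change over the 85 genes was 0.21, and that over all genes tested was -0.0013. Of all genes tested, 30.4% were called higher and 28.4% lower, and the counts below stand against these shares. Without DMSO replicate 1 the median of the 85 genes was 0.10, and 28 rose and 15 fell. The median was 0.43 in complex III, where 5 of 8 genes rose and none fell, and 0.31 in complex IV, where 7 of 13 rose and 1 fell. It was 0.16 in complex II, 0.12 in complex V and 0.08 in complex I, where 14 of 34 rose and 9 fell. It was -0.13 over the 8 complex I assembly factors, of which 3 rose and 2 fell. The difference between complexes was not tested. On the array level, the mean log2 signal of the 8 complex III genes was 0.52, 0.37 and 0.32 above the DMSO mean on the 3 TSA arrays, and the DMSO arrays lay between -0.07 and 0.12. For complex I the TSA arrays lay between -0.02 and 0.05 and the DMSO arrays between -0.05 and 0.05, so that the groups overlapped. They overlapped in complex V as well, at -0.03 to 0.15 with TSA and -0.10 to 0.11 with DMSO. The TSA and DMSO arrays did not overlap in 48 of the 85 genes (56.5%), against 63.2% of all genes tested.

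**Figure D3:**
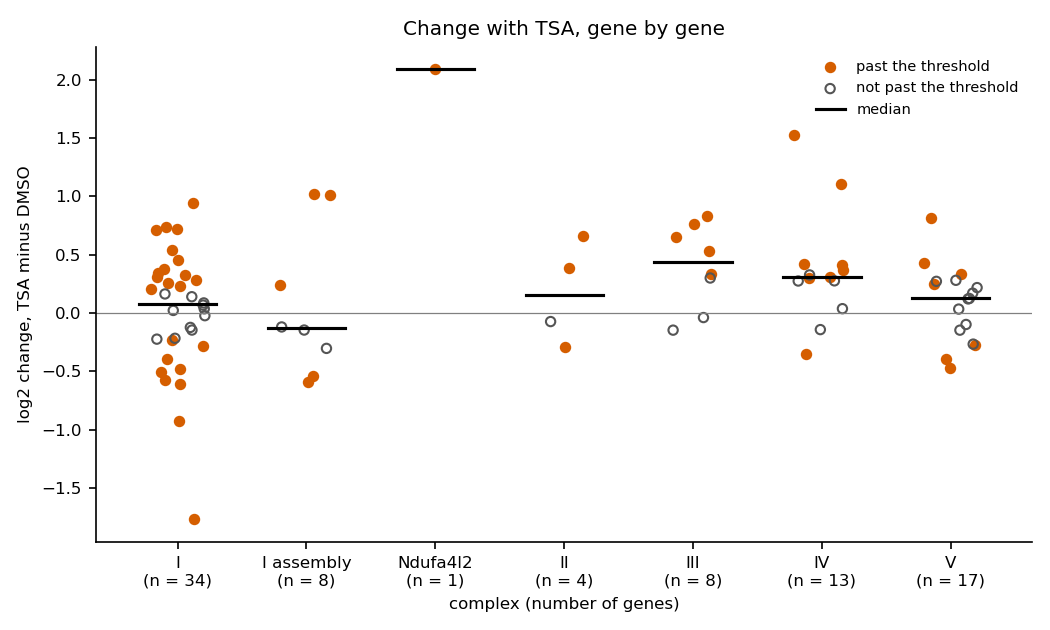
Log2 change with TSA against DMSO (y axis) for each gene, by complex (x axis). Filled points passed the threshold and black lines are medians, which run from 0.43 in complex III to -0.13 for the complex I assembly factors, with Ndufa4l2 alone at 2.09.

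**Figure D4:**
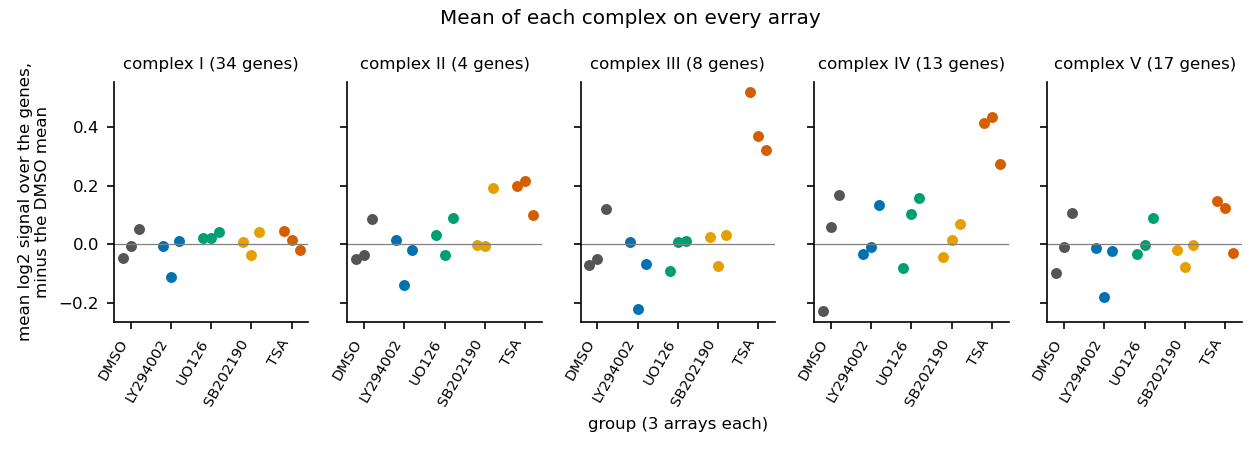
Mean log2 signal of the genes of each complex, relative to the mean of the 3 DMSO arrays (y axis), on each of the 15 arrays (points, replicate 1 to 3 from left in each group). The TSA arrays lie above all other arrays in complexes III and IV and within their range in complex I.

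The values were also set out by signal level. Among all genes with a mean signal of 1000 or more the median log2 change with TSA was -0.0076, and in the 62 of the 85 genes at that level it was 0.21. At 2000 or more the values were 0.04 for all genes and 0.28 for the 25 of the 85 genes, of which 12 rose and 2 fell.

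In complex I, the core subunits moved in opposite directions with TSA. Ndufs8, which holds iron-sulphur clusters of the arm leading to ubiquinone, read 2003, 2150 and 1722 in DMSO and 784, 1215 and 1127 in TSA. The groups did not overlap, and Ndufs8 was 1.90-fold lower (log2 change -0.93 ± 0.16 SE, adjusted p 0.000118). Ndufs3, a core subunit of the same arm, read 973, 942 and 1058 in DMSO and 678, 666 and 611 in TSA. All TSA arrays were lower, and the change was -0.60 (adjusted p 1.28e-05). Ndufv1, the subunit that binds NADH and flavin, rose from 1227 ± 127 to 2001 ± 16.1 (SD, n = 3), by 0.71 on the log2 scale. Ndufv2, its iron-sulphur partner, rose by 0.32 (adjusted p 0.00103). Ndufs1, the largest core subunit, did not pass: it read 563, 548 and 538 in DMSO and 501, 540 and 475 in TSA (log2 change -0.12, adjusted p 0.226). Ndufs7 was the remaining core subunit measured, with a change of 0.04. Over the 6 core subunits 2 rose, 2 fell and the median change was -0.04.

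The accessory subunits of complex I, which surround the core and take part in its assembly and stability, included the largest fall of the set. Ndufb1 read 202, 191 and 202 in DMSO and 53.6, 56.8 and 64.9 in TSA. Every TSA array was far lower (log2 change -1.77 ± 0.15 SE, adjusted p 8.97e-08). Its values were 134, 138 and 180 with LY294002 and 123, 150 and 171 with SB202190, where the adjusted p was 0.0998 and 0.139. Ndufb8 fell from 1673 ± 127 to 1126 ± 59.6 with TSA (log2 change -0.57). Ndufa9, a subunit near the ubiquinone site, fell from 1254 ± 47.6 to 900.5 ± 32.8 (log2 change -0.48, adjusted p 0.000101). Among the rises, Ndufv3, a small subunit next to Ndufv1, read 1069, 1181 and 956 in DMSO and 2137, 2207 and 1808 in TSA. Every TSA array was higher, and the change was 0.94 ± 0.10 SE (adjusted p 1.27e-06). Ndufb10 and Ndufb9 of the membrane arm rose by 0.74 and 0.72. The other accessory rises lay between 0.21 for Ndufa7 and 0.54 for Ndufb3, and the other falls were those of Ndufb5 (-0.51), Ndufa2 (-0.40), Ndufa13 (-0.29) and Ndufa5 (-0.23). Over the 28 accessory subunits 12 rose and 7 fell, with a median of 0.11.

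Ndufa4 carries a complex I symbol but is known as a subunit of complex IV. It read 2170, 2688 and 2294 in DMSO and 3262, 2888 and 2546 in TSA, which overlapped (log2 change 0.28, adjusted p 0.0378). The call was lost without DMSO replicate 1 or 3 or without TSA replicate 1 or 2, at an adjusted p of 0.0769 to 0.180. Ndufa4l2, known as a gene induced by hypoxia, had the largest rise of the set. It read 62.4, 95.4 and 23.1 in DMSO and 231, 179 and 254 in TSA. The 3 DMSO arrays differed widely among themselves (SD 36.2), and all of them lay below the TSA arrays (log2 change 2.09 ± 0.35 SE, 4.25-fold, adjusted p 0.000124). It read 66.2 to 76.1 with LY294002, 69.1 to 92.6 with UO126 and 46.9 to 59.1 with SB202190, all within the DMSO range.

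**Figure D5:**
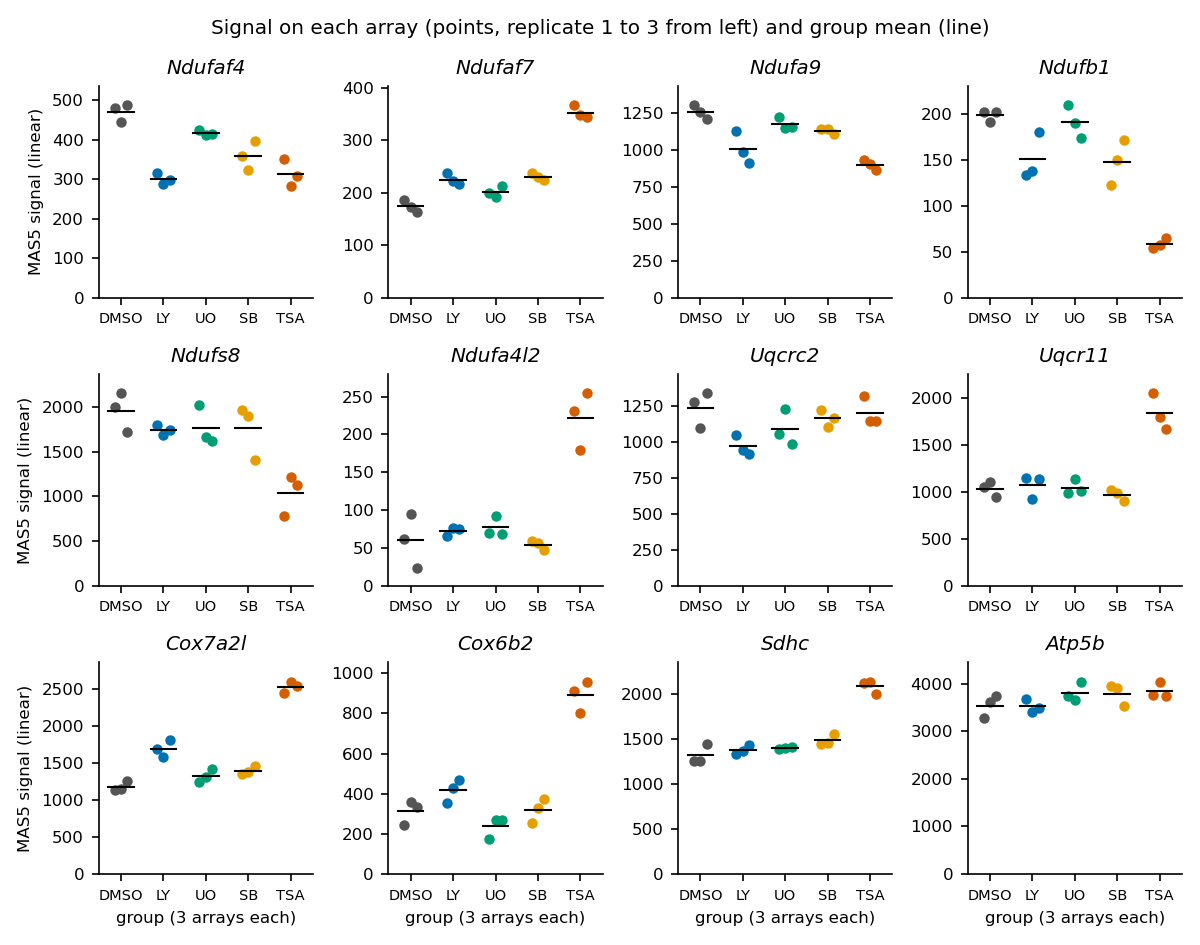
MAS5 signal (y axis, linear, from 0) on each array for 12 of the genes named in the text, with a line at the mean of each group of 3. LY, UO and SB stand for LY294002, UO126 and SB202190. The TSA points lie apart from all others for Ndufb1, Ndufa4l2, Cox7a2l and Cox6b2, and not for Atp5b.

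The complex I assembly factors, which help to build the complex and are not part of it, included genes that responded to more than 1 inhibitor. Ndufaf7, a methyltransferase that modifies a core subunit, read 187, 173 and 163 in DMSO and 367, 348 and 345 in TSA. The TSA arrays were all higher, by 2.03-fold (log2 change 1.02 ± 0.09 SE, adjusted p 1.27e-07). Ndufaf2 read 193, 148 and 178 in DMSO and 370, 311 and 364 in TSA. It was 2.02-fold higher (adjusted p 1.09e-05), and its change with the other 3 inhibitors lay between -0.14 and 0.12. Ndufaf4, a factor for an early assembly intermediate, read 480, 445 and 488 in DMSO and 350, 283 and 309 in TSA. All of the TSA arrays were lower (log2 change -0.59 ± 0.10 SE, adjusted p 8.54e-05). A further, dimmer probe set of Ndufaf4 gave -0.11 with TSA (adjusted p 0.554). Ndufaf1, another early factor, fell from 281 ± 27.8 to 192 ± 2.50 (log2 change -0.54). Ndufaf3 also rose, by 0.24, and Ndufaf5, Ndufaf6 and Ndufaf8 did not pass with TSA.

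Complex II, or succinate dehydrogenase, is also an enzyme of the tricarboxylic acid cycle. Its 4 genes did not move together with TSA. Sdhc, a membrane anchor, read 1258, 1262 and 1442 in DMSO and 2122, 2139 and 2007 in TSA. The groups did not overlap, and the change was 0.66 ± 0.07 SE (adjusted p 1.44e-06). Sdha, the flavoprotein, rose from 973 ± 66.3 to 1275 ± 109 (log2 change 0.39, adjusted p 0.0019). With the probe sets of Sdha averaged, dim ones included, the change was -0.056 (adjusted p 0.869). Sdhd, the other anchor, fell from 1110 ± 54.2 to 907 ± 37.0 (log2 change -0.29, adjusted p 0.0382), and this call was lost without any 1 of the 6 arrays, at an adjusted p of 0.0503 to 0.114. A further Sdhd probe set fell by 0.51 on the log2 scale. Sdhb, the iron-sulphur subunit, read 1352, 1465 and 1455 in DMSO and 1366, 1383 and 1310 in TSA (adjusted p 0.411). None of the 4 was called with the other 3 inhibitors.

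In complex III the rises with TSA were found in the catalytic subunit and in small subunits alike. Uqcrfs1, the Rieske iron-sulphur protein, read 1266, 1252 and 1326 in DMSO and 1893, 1868 and 1808 in TSA. The TSA arrays were all higher (log2 change 0.54 ± 0.07 SE, adjusted p 1.25e-05). Uqcr11, a small subunit, read 1053, 1106 and 946 in DMSO and 2050, 1801 and 1668 in TSA. It was 1.77-fold higher, without overlap. Uqcr10 and Uqcrh, small subunits as well, rose by 0.76 and 0.65, and Uqcrc1, a core protein, by 0.33. Uqcrc2, the partner of Uqcrc1, differed by -0.04 (adjusted p 0.768), Uqcrb by -0.15 and Uqcrq by 0.30 (adjusted p 0.0539). Further probe sets gave 0.20 for Uqcrc2, -0.63 for Uqcrb and -0.44 for Uqcrq. Those of Uqcrc2 and Uqcrq were not called.

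Several complex IV subunits exist as pairs of a general and a tissue type form. Cox6b2, a form known from testis, read 244, 359 and 333 in DMSO and 912, 802 and 958 in TSA. Every TSA array was higher, by 2.89-fold (log2 change 1.53 ± 0.19 SE, adjusted p 4.93e-06). Its general form Cox6b1 read 2624, 3336 and 3463 in DMSO and 4073, 4093 and 3389 in TSA, which overlapped (log2 change 0.30, adjusted p 0.0342). The Cox6b1 call was lost without DMSO replicate 1 or TSA replicate 1 or 2, at an adjusted p of 0.114 to 0.166. Cox7a2l, known as a factor that joins complexes III and IV into supercomplexes, read 1139, 1145 and 1255 in DMSO and 2454, 2602 and 2546 in TSA. The groups lay far apart (2.15-fold, SE 0.08 on the log2 scale), and this was the smallest adjusted p among the 85 genes, 1.42e-08. Its other probe sets gave log2 changes of 0.72 and 1.04. The general form Cox7a2 read 3282, 4634 and 5269 in DMSO and 5396, 5803 and 4540 in TSA (adjusted p 0.135). The muscle form Cox7a1 lay below the signal minimum and entered the test only through the TSA group, where its signal was high. It read 27.7, 34.6 and 20.4 in DMSO and 132, 122 and 131 in TSA. As it passed the filter through that group alone, no change or test is given.

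The other pairs gave the following. Cox4i1, the general form of subunit 4, rose from 2549 ± 250 to 3397 ± 136 with TSA (log2 change 0.42, adjusted p 0.000398). Cox4i2, known as its hypoxia and lung form, read 62.9, 129 and 124 in DMSO and 122, 106 and 137 in TSA (adjusted p 0.402). Cox6a1 read 3052, 3963 and 4189 in DMSO and 4910, 5421 and 4086 in TSA (log2 change 0.37, adjusted p 0.0155). This call was lost without DMSO replicate 1 or TSA replicate 2, at an adjusted p of 0.0787 and 0.0831. Cox6a2, the muscle form, read 67.6, 60 and 75.1 in DMSO and 58.6, 77.3 and 49.97 in TSA. Cox8a read 1758, 2535 and 2563 in DMSO and 3333, 2650 and 2551 in TSA (adjusted p 0.105), and Cox8b, the muscle form, stayed below 50 on every array. Cox5a, a subunit encoded in the nucleus, rose from 3040 ± 276 to 4056 ± 386 (log2 change 0.42). For Cox6a1, Cox6b1, Cox7a2 and Cox8a, DMSO replicate 1 gave the lowest of the DMSO values. The only fall in complex IV was that of Cox8c, a testis form (log2 change -0.35), for which a further probe set gave 0.09. Cox6c, a small subunit, rose by 0.31 and its further probe set gave -0.14.

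In complex V, 7 of 17 genes were called with TSA, where 58.9% of all genes tested were. Atp5b, the catalytic beta subunit, read 3269, 3606 and 3744 in DMSO and 3756, 4042 and 3739 in TSA (log2 change 0.12, adjusted p 0.211). Its group means with the other 3 inhibitors lay between 3527 and 3806. Atp5d, the delta subunit of the rotor stalk, read 1785, 1965 and 2101 in DMSO and 3595, 3541 and 3143 in TSA. It was 1.76-fold higher, without overlap (adjusted p 1.39e-06). Atp5e, the epsilon subunit of the same stalk, fell by 0.47 on the log2 scale. The c subunit of the rotor ring is encoded by 3 genes. Atp5g2 fell from 2256 ± 204 to 1712 ± 127 (log2 change -0.40, adjusted p 0.0032), while its probe sets averaged, dim ones included, gave 0.20 (adjusted p 0.478). Atp5g1 read 1245, 1413 and 1503 in DMSO and 1334, 1132 and 1006 in TSA (log2 change -0.27, adjusted p 0.0641). Atp5g3 read 3335, 4579 and 5117 in DMSO and 5415, 5884 and 4393 in TSA (log2 change 0.28, adjusted p 0.115). Among the other subunits, Atp5h, Atp5j and Atp5pb of the peripheral stalk rose by 0.43, 0.34 and 0.25, and Atp5j2 changed by -0.27. The calls in complex V were 4 rises and 3 falls.

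For 45 of the 85 genes more than 1 probe set was tested. Of the 26 whose chosen probe set was called with TSA, all probe sets had the same sign in 21 and were all called in the same direction in 16, and in 0 was another probe set called in the opposite direction. The probe sets of Ndufs8, Atp5j2, Cox6c, Cox8c and Ndufab1 differed in sign. For Ndufs8, 5 of 6 probe sets were called lower, and the remaining one gave 0.27 (adjusted p 0.360). Of the genes that were not called, 4 had another probe set that was.

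With LY294002 the calls were Ndufaf4, Uqcrc2 and Ndufa9, which were lower, and Ndufaf7 and Cox7a2l, which were higher. The chosen probe set of Cox7a2l ends in _x_at and the only one of Ndufaf7 in _s_at. Such probe sets may take up related transcripts. Ndufaf4 read 316, 289 and 299 against 480, 445 and 488 in DMSO. It was 1.56-fold lower, without overlap (log2 change -0.64 ± 0.10 SE, adjusted p 0.0014). Cox7a2l read 1695, 1577 and 1810 against 1139, 1145 and 1255. It was 1.44-fold higher (log2 change 0.52 ± 0.08 SE, adjusted p 0.0014), and 2 of its 3 probe sets gave 0.50 and 0.52, while the third gave 0.22 (adjusted p 0.199). Both calls were kept without any 1 array.

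The remaining calls with LY294002 were smaller. Ndufaf7 read 237, 222 and 217 against 187, 173 and 163 (log2 change 0.37, adjusted p 0.019), and the call was lost without DMSO replicate 2 or 3 or LY294002 replicate 1 or 2, at an adjusted p of 0.0520 to 0.0762. Ndufa9 read 1129, 984 and 910 against 1302, 1254 and 1207 (log2 change -0.32, adjusted p 0.0231), and was lost without DMSO replicate 1 or 2 or LY294002 replicate 2 or 3, at 0.0507 to 0.0928. Uqcrc2 read 1046, 941 and 916 against 1277, 1096 and 1335 (log2 change -0.35, adjusted p 0.0449). The Uqcrc2 call was lost without DMSO replicate 1 or 3 or any LY294002 array, at 0.0535 to 0.151. The LY294002 count was 2 to 5 genes when 1 array was left out, and it fell to 3 or fewer without DMSO replicate 2 or 3 or any LY294002 array. When each array was centred on its median, 2 rises and 0 falls remained. The median log2 change of all probe sets was then 0.12, against -0.0040 as deposited. The calls above are from the fit without the replicate number as a block. With that block, 12 genes were called, 5 higher and 7 lower, among them the 5 above. In that fit 16.4% of all genes tested were called. The further falls were Atp5g1, Ndufaf5, Ndufb8 and Uqcrfs1, and the further rises Ndufa6, Ndufa7 and Cox6b2.

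The sign of the small LY294002 values depended on whether each array was centred on its median. Of the 85 genes, 50 had a negative log2 change as deposited and 19 with each array centred on its median. Centring shifted all probe sets together, and the median of the 85 genes minus that of all probe sets was -0.028 in both scalings. With quantile normalization the median of the 85 genes was -0.060, and 3 were called higher and 7 lower. The 6 complex I core subunits were all below DMSO as deposited, with log2 changes of -0.01 to -0.17, and 2 of the 6 were with centring. None of the 6 was called. Over the 85 genes the LY294002 and DMSO arrays did not overlap in 17 (20%), 13 of them lower, against 28.6% of all genes tested.

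With SB202190, Ndufaf7 rose and Ndufaf4 fell. Ndufaf7 read 238, 230 and 224, above all DMSO arrays, and Ndufaf4 read 358, 324 and 398, below them. The log2 changes were 0.40 (adjusted p 0.0223) and -0.39 (adjusted p 0.0384). Ndufaf7 was lost without DMSO replicate 2 or 3 or SB202190 replicate 1 or 2, at 0.0675 to 0.0988, and Ndufaf4 without any DMSO array or SB202190 replicate 1 or 2, at 0.0675 to 0.179. With UO126 the same genes read 199, 192 and 213 for Ndufaf7 and 426, 413 and 416 for Ndufaf4, which did not overlap with DMSO and were not called (adjusted p 0.291 and 0.473). Across the 4 inhibitors, all of which are compared with the same 3 DMSO arrays, the log2 change of Ndufaf4 was -0.64, -0.17, -0.39 and -0.59 in the order LY294002, UO126, SB202190 and TSA. That of Ndufaf7 was 0.37, 0.21, 0.40 and 1.02. Over the 85 genes the arrays did not overlap with DMSO in 11 (12.9%) with SB202190 and 6 (7.06%) with UO126, against 23.2% and 19.2% of all genes tested.

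The inhibitors were also compared with each other. Between LY294002 and UO126, 2 of the 85 genes were higher and 2 lower with LY294002, against 8.2% of all genes called. Cox6b2 read 355, 427 and 471 with LY294002 and 176, 268 and 269 with UO126, a log2 difference of 0.83, and Cox7a2l was 0.35 higher. Ndufaf5, an assembly factor, was lower with LY294002 (-0.50), as was Ndufaf4 (-0.47). This count was 2 without LY294002 replicate 2 and 1 without LY294002 replicate 3. With the replicate number as a block, 2 were higher and 4 lower, with Atp5g1 (-0.39) and Ndufa9 (-0.23) added, against 13.8% of all genes in that fit. With each array centred on its median, 2 were higher and 0 lower. Between LY294002 and SB202190, Cox7a2l was higher (0.28) and Ndufaf5 (-0.51) and Uqcrc1 (-0.40) were lower with LY294002, against 7.4% of all genes. This count was 1 without LY294002 replicate 3 or any SB202190 array, and with each array centred on its median none of the 3 was called. Between UO126 and SB202190 limma called 0 of the 85 genes, against 9.79% of all genes, with 10 at an unadjusted p under 0.05 and a smallest adjusted p of 0.0567.

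TSA was also compared with each of the other inhibitors. In comparison with LY294002, 39 genes were higher and 15 lower with TSA, or 72.2% of the calls higher, and with each array centred on its median the split was 23 and 15, or 60.5%. In comparison with UO126, 30 were higher and 19 lower, and in comparison with SB202190, 34 and 17. The shares of all genes called were 58.3%, 59.5% and 56.8%. Of all genes tested, 3432 were called higher and 3401 lower with TSA than with LY294002. The counts were 3570 and 3406 against UO126, and 3285 and 3372 against SB202190. These comparisons share the TSA arrays with each other and with the comparison against DMSO.

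Genes outside the complexes that serve the same pathway were described from lists, whose counts stand against the 58.9% of all genes called with TSA, 30.4% higher and 28.4% lower. Of 8 further genes of the chain, 6 rose and 1 fell with TSA, with a median log2 change of 0.49. Cyc1, the cytochrome subunit of complex III, rose by 0.41, Cox17, a copper chaperone for complex IV, by 0.76, and Higd2a, a supercomplex factor, by 0.56, while the related Higd1a fell by 0.56. Cycs, cytochrome c itself, read 2939, 3033 and 3335 in DMSO and 3499, 3366 and 3035 in TSA (adjusted p 0.433). The single mitochondrially encoded gene with a probe set, ND5 of complex I, rose from 1765, 2324 and 2198 to 2886, 3204 and 2533 (log2 change 0.46, adjusted p 0.0098).

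Of 31 further assembly factors tested, 7 rose and 7 fell with TSA (45.2% called), with a median of 0.02. Sdhaf3, for complex II, rose by 1.59, Sco2, a copper chaperone, fell by 1.20, and Cox10, for heme A synthesis, fell by 0.62. With LY294002, 1 rose and 3 fell in this list (12.9%, against 9.5% of all genes), and Cox10 (-0.50), Cox18 (-0.32) and Ecsit (-0.40) were the falls. Uqcc1, an assembly factor of complex III, was the only rise with LY294002, UO126 and SB202190 each. Its log2 change was 0.60, 0.66, 0.65 and 0.60 with LY294002, UO126, SB202190 and TSA (adjusted p 0.0119, 0.0117, 0.0162 and 0.00107), against the same 3 DMSO arrays.

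Among 18 regulators of mitochondrial biogenesis, 7 rose and 5 fell with TSA, or 66.7%, near the share of all genes. None of the 18 was called with the other inhibitors, where 3.46% to 9.5% of all genes were. Pprc1, a coactivator of the PGC-1 family, read 374, 316 and 345 in DMSO and 111, 153 and 132 in TSA (log2 change -1.39, adjusted p 3.83e-07). Tfb2m and Tfam, which act in transcription of mitochondrial DNA, rose by 0.85 and 0.37. Nrf1 (-0.39, adjusted p 0.125) and Yy1 (0.02) did not pass, Gabpa fell by 0.39 (adjusted p 0.0344) and Esrra rose by 0.50 (adjusted p 0.0391). In the tricarboxylic acid cycle 8 of 12 genes rose and 2 fell with TSA (83.3% called, median 0.34), with Ogdh (0.74) and Cs (0.37) among the rises and Suclg2 (-0.98) among the falls. Of 11 genes for pyruvate dehydrogenase and its control, 8 rose and 1 fell (81.8% called, median 0.41), and Pdk4, an inhibiting kinase, had the largest rise (1.35).

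Of 12 carriers and uncoupling genes, 5 rose and 2 fell with TSA, or 58.3%, near the share of all genes. The adenine nucleotide carriers, which exchange ADP and ATP across the inner membrane, differed: Slc25a5 fell from 2899, 3278 and 3638 to 1788, 1870 and 1621 (log2 change -0.89), and Slc25a4 rose by 0.39. With LY294002, Slc25a5 (-0.38), Slc25a13 (-0.47) and Slc25a1 (-0.33) fell and none rose (25% called). Of 14 tested genes of the hypoxia response, a list to which Ndufa4l2 would belong by its known regulation, 7 rose and 5 fell with TSA (85.7% called). Egln3 (2.07), Adm (1.73) and Slc2a1 (1.17) were among the rises, and Ldha (-0.49) and Vegfa (-0.40) among the falls.

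The cultures carried the markers of chondrocytes, with all 12 at a mean signal of 50 or more in every group. These markers moved with TSA: 11 of the 12 fell, with a median log2 change of -2.08, and their summed signal was 14633 to 16721 on the TSA arrays and 26548 to 41514 on the DMSO arrays. Markers of skeletal muscle, a tissue rich in mitochondria that borders on the bones, were present too. Their summed signal over 14 genes was 1026 to 2107 in DMSO, 809.4 to 1410 with LY294002 and 412 to 496 with TSA, where 9 of 13 tested fell and 2 of 14 stayed at 50 or more. Of the macrophage markers, 5 of 6 tested fell with TSA and 1 rose, with sums of 639 to 733 against 836 to 985 in DMSO. Of the smooth muscle markers, 4 of 5 tested fell, with sums of 3034 to 3539 against 4882 to 6245. With UO126, 3 of the 5 smooth muscle markers rose, and the sums of 7619 to 8725 did not overlap with DMSO. With SB202190, 1 of the 5 fell, with sums of 4909 to 5288. No chondrocyte, skeletal muscle or macrophage marker was called with UO126 or SB202190, where the chondrocyte sums were 37420 to 51468 and 26744 to 31731 and the skeletal muscle sums 1331 to 2772 and 1511 to 2801. No marker of the 4 lists was called with LY294002. Uncalled changes could still share a sign. Among the 13 tested skeletal muscle markers 0 had a positive log2 change with LY294002 (median -0.56). Of the 14, 8 stayed at 50 or more, against 12 in DMSO. Of the 12 chondrocyte markers, 11 were positive with LY294002 (median 0.19), 12 with UO126 (0.38) and 0 with SB202190 (-0.29). The part of these shifts in the values of the oxidative phosphorylation genes was not tested.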

How the data were processed

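RNA of 15 primary chondrocyte cultures was hybridised to Affymetrix MOE 430 2.0 arrays, 3 for each of 5 groups. The series calls them biological replicates, and the study's methods name independent experiments for DMSO and LY294002 only. The authors deposited 1 table of linear signal intensity made with MAS5, per the labels, in which each array had a mean of 150 after 2% of the values were trimmed at each end. The number of arrays limits the precision. The TSA concentration was not used.

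Of 45101 probe sets, 64 controls were left out and the 21765 with a group mean of 50 or more in at least 1 group were tested. Signals under 1 were set to 1, and log2 values of all 15 arrays were fitted with limma 3.58.1 (R 4.3.3; lmFit, eBayes with a trend, two-sided, Benjamini-Hochberg over all tested probe sets, threshold 0.05), after the test was checked on simulated data. Fold changes are ratios of geometric means. A gene was represented by the probe set with the highest mean log2 signal. Of these, 19 of the 85 end in _s_at or _x_at, among them those of Cox7a2l and Ndufaf7, and may take up related transcripts. Another 10 probe sets with several symbols, including all of Ndufa11 and Ndufs6 and some of Ndufb4, were left out. Symbols came from the platform annotation, and all 85 matched RefSeq by gene ID.

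The members and gene lists were chosen with earlier results of these data known. The genes named were the 6 largest rises and falls past the threshold against DMSO, the genes next to the signal minimum, isoform pairs, complex II, a core gene of each complex, and up to 5 genes per further list. Other genes named were added after their values were seen. Calls of these and of the further lists were not repeated with arrays left out. Alternatives were other scaling, filters, log offset, arrays, probe set choice and a replicate block. Arrays of the same number deviated together in LY294002 and DMSO (r over probe sets 0.16 to 0.42) and in UO126 and DMSO (0.22 to 0.42). They also did so in LY294002 and UO126 (0.17 to 0.34), and in TSA and SB202190 (0.14 to 0.19). For these pairs the block is read as a pairing. All counts, SEs, adjusted p and asterisks are from the fit without it, except where the block is named. The labels do not say that a number marks a shared experiment.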

Additional observations from a re-analysis of the deposited data

How the results depend on the processing

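All 52 calls with TSA held with the replicate block (55 in all), and the TSA count against DMSO was 39 to 58 under the alternatives and 42 to 54 with 1 array left out. For LY294002 against DMSO, 5 genes became 10 with quantile normalization, 2 with median centring, 2 with these groups alone, 12 with the replicate block, 3 with probe sets lacking the suffixes _s_at and _x_at (chosen after seeing the data), and 2 to 5 with 1 array left out. For SB202190 against DMSO, 2 became 0 with centring, 1 without a filter, 0 with these groups alone, 3 with the replicate block, 1 without the suffixes and 0 to 2 with 1 array left out. For LY294002 against UO126, 4 became 2 with centring, 6 with the block and 1 to 5 with 1 array left out. For LY294002 against SB202190, 3 became 5 with quantile normalization, 0 with centring, 1 with these groups alone and 1 to 2 with 1 array left out. For UO126 against SB202190, 0 became 1 with quantile normalization, with these groups alone and with the block. UO126 against DMSO stayed at 0. With the probe sets of each gene averaged, the TSA change of Atp5g2 was 0.20 and that of Sdha was -0.056. The cause of these differences was not tested. Where the block is no pairing, it added 1 call for SB202190 and 3 for TSA. After centring, the median log2 change of all probe sets was 0.11 for LY294002 minus UO126 and -0.11 for TSA minus LY294002. Signals near 50 limit Ndufa4l2, Cox4i2, Cox6a2, Cox7a1 and Ndufaf6, and Ndufb1 on the TSA arrays.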
